A study of Homo sapiens with 24 samples.

Results

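ANGPTL4 encodes a secreted inhibitor of lipoprotein lipase and is a textbook target of the peroxisome proliferator-activated receptors (PPARs). Its transcript rose steeply in U251 glioblastoma cells exposed to G-1, and the expression of 7 other PPAR target genes was examined beside it to see whether they moved at each dose and duration. These were PDK4, PLIN2, CPT1A, SLC25A20, ACADVL, HADHA and ACAA2, most of which act in mitochondrial fatty acid oxidation. The 8 genes were chosen by name, with the rise of ANGPTL4 known, and every probe whose RefSeq transcript belonged to one of them was read. Each gene had 1 probe. Of the 8 genes, 7 exceeded the background clearly on every array of some group and were tested, among 14235 genes tested in all, and PLIN2 was not.

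U251 is an established human glioblastoma cell line, and G-1 is a synthetic agonist of the G protein-coupled estrogen receptor GPER. Cells were deprived of hormones for 24 h in medium with charcoal-stripped serum and were then exposed to DMSO as the vehicle (0.1% in the sample labels), to G-1 at its IC50 dose, or to G-1 at 1 µM, for 24 h or for 72 h. Each of the 6 groups held 4 replicates, described in the labels as independent, and each replicate was measured on a 1-colour Agilent array. All groups shared the hormone deprivation, and the cells were a single cultured line. RNA was taken from whole cultures, in which a change in the share of responding cells and a change per cell cannot be told apart. A duration entry in the labels contradicts the titles in 2 groups, the 24 h exposure to the IC50 dose and the 72 h exposure to 1 µM, and the titles were followed. Levels are given as log2 signals minus the 75th percentile of their own array, so that 1 unit is a 2-fold step and a negative level lies under that percentile. Levels of different genes come from different probes and are not compared.

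Between 38.0% and 44.5% of the spots of an array were well above background, and replicates of a group correlated between 0.990 and 0.996. All 7 glioma and astroglial markers examined were above background on all 24 arrays, GFAP and S100B among them. Of 4 hepatocyte genes, ALB and TTR were above background on no array, and APOA1 and SERPINA1 on all 24. Of 4 adipocyte genes, ADIPOQ, LEP and PLIN1 were above background on none, and CIDEC on all 24. With G-1 1 µM at 72 h, limma called all 7 glioma and astroglial markers lower, GFAP by 2.71 and S100B by 1.96 on the log2 scale. Of all genes, 30.9% were called lower there and 35.3% higher. Of the neuronal and endothelial genes tested, RBFOX3 (-1.57), MAP2 (-0.63) and VWF (-1.70) were called lower and KDR (1.71) higher. The immune gene CD14 rose by 1.23. Of the other immune genes PTPRC and AIF1 were above background on no array, and the part of such shifts in the results was not tested. The arrays lay on 3 slides of 8, scanned in 2 sessions. Slides 1 and 2 held the DMSO and IC50 arrays, whereas slide 3, scanned in the second session, carried the 8 arrays of the 1 µM dose and nothing else. Dose and slide or session cannot be told apart wherever 1 µM is compared with another group.

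PPARs are nuclear receptors that are activated by fatty acids and pair with retinoid X receptors (RXRs) on DNA. Their usual site is a direct repeat of AGGTCA with a spacer of 1 base. In liver, muscle and other tissues they switch on genes by which cells take up fatty acids, move them into mitochondria and oxidise them. CPT1A couples long-chain fatty acids to carnitine, SLC25A20 carries the acylcarnitines across the inner mitochondrial membrane, ACADVL, HADHA and ACAA2 act in the beta-oxidation spiral, PDK4 holds back pyruvate oxidation by phosphorylating pyruvate dehydrogenase, and PLIN2 coats lipid droplets.

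The upstream sequences of 4 of these genes are shown because they span the range from the largest rise to the closest match to the PPAR repeat. Each is the 250 bases before the annotated transcription start in RefSeq on GRCh38.p14, 5′ to 3′ on the strand of the gene, and capitals mark 13 bases closest to the direct repeat. In ANGPTL4 and ACAA2 no other stretch was as close, whereas the stretch marked in PDK4 is the first of 3 equally close ones in the window read and that in CPT1A the first of 2. They lie at chr19:8363905-8364154 on the plus strand (ANGPTL4), and on the minus strand at chr7:95596517-95596766 (PDK4), chr11:68844278-68844527 (CPT1A) and chr18:49813534-49813783 (ACAA2).
ANGPTL4: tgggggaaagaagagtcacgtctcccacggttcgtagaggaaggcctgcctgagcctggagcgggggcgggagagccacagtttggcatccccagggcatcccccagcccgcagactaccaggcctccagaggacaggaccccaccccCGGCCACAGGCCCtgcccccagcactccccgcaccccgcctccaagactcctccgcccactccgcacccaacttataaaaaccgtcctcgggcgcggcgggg
PDK4: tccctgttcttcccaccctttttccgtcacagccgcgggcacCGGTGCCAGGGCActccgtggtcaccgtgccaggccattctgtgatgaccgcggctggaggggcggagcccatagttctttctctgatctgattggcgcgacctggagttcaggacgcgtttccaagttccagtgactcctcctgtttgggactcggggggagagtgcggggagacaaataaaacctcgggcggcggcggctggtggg
CPT1A: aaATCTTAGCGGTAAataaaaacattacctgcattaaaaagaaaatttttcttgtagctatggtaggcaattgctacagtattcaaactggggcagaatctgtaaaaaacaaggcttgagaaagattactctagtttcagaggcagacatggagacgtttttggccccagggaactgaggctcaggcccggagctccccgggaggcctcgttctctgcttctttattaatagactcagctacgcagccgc
ACAA2: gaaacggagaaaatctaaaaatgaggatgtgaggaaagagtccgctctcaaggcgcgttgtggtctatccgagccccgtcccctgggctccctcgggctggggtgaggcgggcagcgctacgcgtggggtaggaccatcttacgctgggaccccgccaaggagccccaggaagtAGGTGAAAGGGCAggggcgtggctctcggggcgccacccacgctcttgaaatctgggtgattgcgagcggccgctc
The 8 genes had 9 annotated windows of 300 bases (250 before and 50 after a start), ACADVL having 2 of them. On either strand, 0 of the 9 windows held the direct repeat of AGGTCA with 1 free base between its units exactly, as did 8 of 35116 RefSeq windows of the same length (0.0228%). The single unit AGGTCA, which is part of the repeat, was also in 0 of the 9 windows, against 13.8% of all windows. ACAA2 had the closest match of the 9, with 2 mismatches, a distance that 2.97% of all windows reach. ANGPTL4 and PDK4 had 4 mismatches and CPT1A had 5, distances that most windows reach. With the exact repeat in so few windows, 0 of 9 is what nearly any 9 windows would give. Sequence outside the windows was not read, so the counts do not say whether a gene has a PPAR site. These letters describe the windows only and were not tested for binding.

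ANGPTL4 was at or near background in cells without G-1 and far above the 75th percentile of the array after 72 h of G-1. In DMSO at 24 h its levels in replicates 1 to 4 were -3.21, -3.23, -4.06 and -4.97, and no array was well above background. After 24 h at the IC50 dose they were 0.69, 0.61, -1.09 and -0.28, and after 24 h at 1 µM 1.98, 2.21, 0.49 and 0.81. Both doses thus lay above every DMSO array at 24 h, while the 2 doses overlapped each other. In DMSO at 72 h the levels were -1.87, -2.29, -3.64 and -3.23, with 2 of 4 arrays above background. After 72 h at the IC50 dose they were 4.03, 3.92, 2.56 and 2.75, and after 72 h at 1 µM 5.43, 5.39, 4.70 and 4.87. At 72 h the 3 groups did not overlap.

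**Figure D1:**
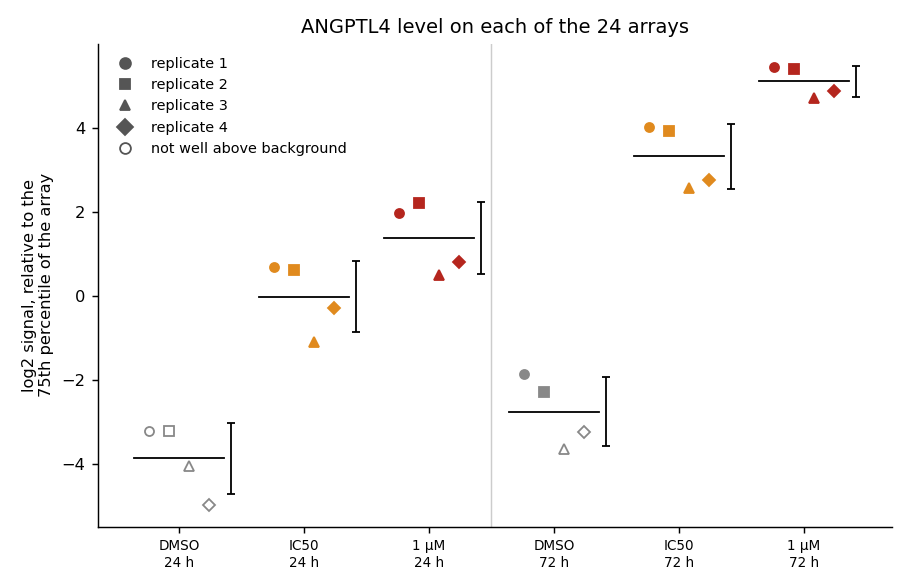
ANGPTL4 on each of the 24 arrays. The y axis is the log2 level (75th percentile of each array at 0), the x axis the 6 groups, symbols the replicate numbers, open symbols arrays not well above background, horizontal lines the mean of 4 and bars the SD. Means run from -3.87 in DMSO 24 h to 5.10 in G-1 1 µM 72 h, and replicates 1 and 2 lie above replicates 3 and 4 in each group.

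Against DMSO at 24 h, where no array was above background, ANGPTL4 was at least 9.37-fold higher with G-1 IC50 and at least 24.5-fold higher with G-1 1 µM on the scale used here. These bounds raise a DMSO array to the lowest signal that counted as well above background where it lay under that signal. They are bounds on the group means for this background subtraction and take no account of the spread between arrays. At 72 h, where 2 DMSO arrays measured it, the difference was 6.07 ± 0.51 (SE, log2 scale, n = 4 per group) with G-1 IC50, or 67.3-fold, and 7.86 ± 0.51 with G-1 1 µM, or 232-fold. These take the other 2 DMSO arrays at their measured signals, which were not above background. At the lowest signal that counted as above it, the DMSO mean would be -2.65 in place of -2.76. No p is attached, because the gene was chosen for this rise. With normexp background correction, which compresses dim signals, the log2 differences at 72 h were 3.91 and 5.67, and at 24 h 1.36 and 2.48. The 24 h values lie under the bounds above, which are 3.23 and 4.62 on the log2 scale. Within slides 1 and 2, the difference for G-1 IC50 was 3.84 and 3.43 at 24 h, and 6.68 and 5.87 at 72 h. The 24 h values take the DMSO arrays at their measured signals, none above background. Slide 2 held 1 DMSO array at 24 h, and slide 1 held 1 G-1 IC50 array at 72 h. The values within slides, here and for the genes below, thus rest on 1 array on a side in those cases. Ordered by their means, the groups ran from DMSO 24 h (-3.87) through DMSO 72 h (-2.76), G-1 IC50 24 h (-0.02), G-1 1 µM 24 h (1.37) and G-1 IC50 72 h (3.31) to G-1 1 µM 72 h (5.10). Neighbours overlapped between the DMSO groups and between the 24 h doses, and the other neighbours did not overlap.

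The replicates of ANGPTL4 had a regular spread. In 6 of 6 groups, both replicates 1 and 2 exceeded both replicates 3 and 4, in DMSO as with G-1. Among the other members no gene did so in more than 2 groups (ACADVL), and SLC25A20 had the opposite order in 4 of 6. Taken by replicate number, the rise of ANGPTL4 with G-1 IC50 at 72 h was 5.90, 6.21, 6.20 and 5.98 on the log2 scale, with an SD of 0.16, whereas the SD among the arrays of that group was 0.77. The other comparisons with DMSO were less even, with an SD of the differences of 0.71 after 24 h of the IC50 dose, 0.52 after 24 h of the 1 µM dose and 0.46 after 72 h of it, beside 0.84, 0.85 and 0.37 among the arrays of those groups. In DMSO no replicate was above background at 24 h, and replicates 3 and 4 were not at 72 h. The order in DMSO and the differences by replicate number thus rest in part on signals not above background.

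PDK4 was above background on all 24 arrays and rose with G-1 at 72 h. Its levels in DMSO at 72 h were -1.70, -1.30, -2.27 and -1.93, with G-1 IC50 0.16, 0.04, -0.39 and 0.27, and with G-1 1 µM 0.39, -0.58, -0.65 and -0.54. All arrays of both doses lay above all DMSO arrays, and within G-1 1 µM, replicate 1 was well above its 3 fellows. After 72 h of G-1 1 µM, PDK4 was 2.74-fold higher than in DMSO (1.45 ± 0.22 SE on the log2 scale; limma adjusted p = 1.06e-05). With G-1 IC50 for 72 h it was 3.53-fold higher (1.82 ± 0.22 on the log2 scale; 1.65 and 2.00 within slides 1 and 2), a rise that was known when the genes were chosen and is given without a test. Both comparisons share the DMSO arrays at 72 h, so the test for 1 µM is not independent of the rise known beforehand. With normexp correction the log2 differences were 0.74 and 0.95.

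At 24 h PDK4 was higher with the IC50 dose than with 1 µM, and neither dose passed the test against DMSO. Its levels were -1.76, -1.36, -1.71 and -1.61 in DMSO, -0.72, -0.48, -0.96 and -0.08 with G-1 IC50, and -1.31, -1.10, -1.25 and -1.18 with G-1 1 µM. G-1 IC50 lay wholly above the other groups, and G-1 1 µM lay just above DMSO. The difference from DMSO was 1.05 ± 0.22 with G-1 IC50 (limma adjusted p = 0.0643) and 0.40 ± 0.22 with G-1 1 µM (adjusted p = 0.186). Over the alternative settings the adjusted p for G-1 IC50 ran from 0.0108 to 0.217, the call being gained, for instance, with an intensity trend in the variance (0.0327). For G-1 1 µM it ran from 0.0266, in a fit restricted to the compared groups, to 0.416. Between the doses at 24 h, PDK4 was 1.57-fold lower with 1 µM than with the IC50 dose (-0.65 ± 0.22 on the log2 scale, limma adjusted p = 0.0371), a call that was lost without replicate 3 of G-1 1 µM and in which dose and slide cannot be told apart. Several other single omissions left only 1 gene called between the doses at 24 h, as given in the last section.

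CPT1A, which catalyses the entry step of long-chain fatty acids into mitochondria, had the most uniform rise. In DMSO at 24 h its levels were 3.26, 3.27, 3.40 and 3.34, with G-1 IC50 4.05, 3.94, 4.04 and 4.01, and with G-1 1 µM 4.08, 3.88, 3.94 and 4.12. In DMSO at 72 h they were 3.47, 3.40, 3.52 and 3.43, with G-1 IC50 4.33, 4.23, 4.32 and 4.23, and with G-1 1 µM 4.15, 4.27, 4.16 and 4.24. Every G-1 array lay above every DMSO array, and the doses overlapped at both durations. The fold changes against DMSO were 1.61 with either dose at 24 h, and at 72 h 1.77 with the IC50 dose and 1.68 with 1 µM. In limma the adjusted p-values at 24 h were 1.91e-06 with the IC50 dose and 8.04e-07 with 1 µM, and at 72 h 1.59e-07 and 1.45e-09. The rise with G-1 IC50 was 0.66 and 0.76 on the log2 scale within slides 1 and 2 at 24 h, and 0.82 and 0.80 at 72 h. Between the doses it differed by 0.00 at 24 h, with a 95% interval from -0.13 to 0.12, and by -0.07 at 72 h, with an interval from -0.20 to 0.05.

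SLC25A20, the carnitine-acylcarnitine carrier that follows CPT1A, was higher with 1 µM at both durations and with the IC50 dose at 72 h. Its levels in DMSO at 72 h were 2.39, 2.40, 2.40 and 2.49, with G-1 IC50 2.91, 2.88, 2.93 and 3.11, and with G-1 1 µM 3.39, 3.12, 3.19 and 3.32. The 3 groups were ordered without overlap. The rise on the log2 scale was 0.54 ± 0.09 with G-1 IC50 (SE; limma adjusted p = 0.0032; 0.44 and 0.59 within slides 1 and 2) and 0.84 ± 0.09 with G-1 1 µM (adjusted p = 1.01e-07). The difference between the doses at 72 h was 0.30 ± 0.09 (adjusted p = 0.00681). At 24 h it was 0.34 ± 0.09 above DMSO with G-1 IC50 (adjusted p = 0.256) and rose by 0.58 ± 0.09 with G-1 1 µM (adjusted p = 0.000148). The 24 h doses differed by 0.24 ± 0.09 (adjusted p = 0.0515), which passed once the fit held a replicate term, the numbers pairing the samples there (adjusted p = 0.0124). With scaling to the 50th percentile of each array, the adjusted p of the rise with G-1 IC50 at 72 h was 0.0517, the highest over its alternatives, which began at 0.000206.

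ACADVL encodes the dehydrogenase that begins beta-oxidation of very long-chain acyl-CoA. Its levels in DMSO at 24 h were 7.73, 7.69, 7.94 and 7.98, with G-1 IC50 8.23, 8.32, 8.27 and 7.97, and with G-1 1 µM 8.52, 8.25, 8.27 and 8.32. G-1 1 µM lay above all DMSO arrays, and replicate 4 of G-1 IC50 lay among them. ACADVL rose with G-1 1 µM by 0.50 ± 0.09 on the log2 scale at 24 h (limma adjusted p = 0.000626) and by 0.37 ± 0.09 at 72 h (adjusted p = 0.00163). With G-1 IC50 the differences were 0.36 ± 0.09 (adjusted p = 0.222) and 0.37 ± 0.09 (adjusted p = 0.0796). At 72 h the arrays of G-1 IC50, between 8.22 and 8.53, lay above those of DMSO, between 7.87 and 8.17, and the call was gained with the slide as a block (0.41, adjusted p = 0.018) and with quantile normalization (0.44, adjusted p = 0.00723), the range over the alternatives being 0.00723 to 0.321.

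HADHA and ACAA2 act at the later steps of the spiral and differed from each other. HADHA, the alpha subunit of the mitochondrial trifunctional protein, ranged from 3.40 to 3.91 over all arrays and passed the test in no comparison. Its differences from DMSO were 0.20 ± 0.09 and 0.12 ± 0.09 with the IC50 dose at 24 h and 72 h, and 0.16 ± 0.09 and -0.04 ± 0.09 with 1 µM (limma adjusted p = 0.977, 0.752, 0.177 and 0.672). The 95% intervals reached at most 0.38.

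ACAA2, the mitochondrial thiolase that closes the spiral, was higher with the IC50 dose. Its levels in DMSO at 72 h were 2.28, 2.08, 2.10 and 2.10, with G-1 IC50 2.84, 2.67, 2.71 and 2.82, and with G-1 1 µM 2.37, 2.15, 2.23 and 2.22. G-1 IC50 lay above both other groups, which overlapped. The rise with G-1 IC50 was 0.61 ± 0.09 on the log2 scale at 72 h (limma adjusted p = 0.000751; 0.58 and 0.59 within slides 1 and 2) and 0.46 ± 0.09 at 24 h (adjusted p = 0.0299; 0.40 and 0.43). At 1 µM the differences were 0.15 ± 0.09 at 24 h (adjusted p = 0.207) and 0.10 ± 0.09 at 72 h (adjusted p = 0.322). ACAA2 was 1.24-fold lower with 1 µM than with the IC50 dose at 24 h (adjusted p = 0.0147) and 1.43-fold lower at 72 h (adjusted p = 4.39e-05). The 24 h call against DMSO rested on nearly every array, since 6 of the 8 single omissions ended it (adjusted p between 0.0067 and 0.159).

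PLIN2, a lipid droplet coat protein, could be measured on 4 of the 24 arrays. These were replicate 3 of G-1 IC50 24 h (-2.46), replicate 1 of G-1 IC50 72 h (-2.63), and replicates 2 and 3 of G-1 1 µM 72 h (-1.52 and -1.63). No DMSO array and no array of G-1 1 µM 24 h was above background. No group had PLIN2 above background on more than 2 of its 4 arrays, so it was not tested and no fold change is given.

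**Figure D2:**
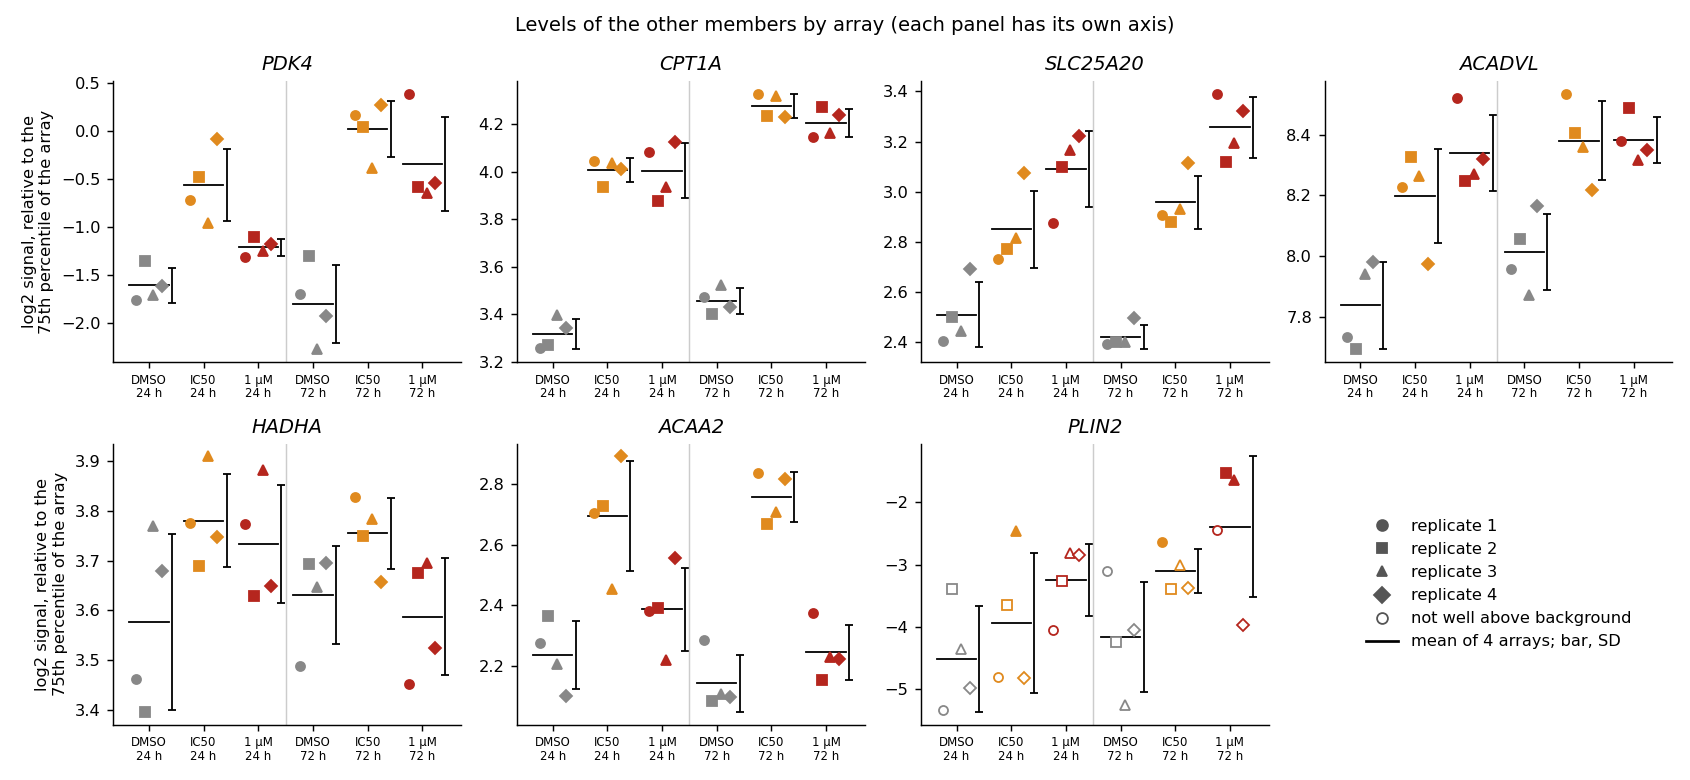
The 7 other genes on each of the 24 arrays. The y axis of each panel is the log2 level (75th percentile of each array at 0), on its own range, with lines for the mean of 4, bars for the SD and open symbols for arrays not well above background. CPT1A with G-1 (3.88 to 4.33) lies wholly above DMSO (3.26 to 3.52), ACAA2 has its highest means with G-1 IC50, and most PLIN2 symbols are open.

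Counted over the 6 testable genes beside ANGPTL4, 2 rose with G-1 IC50 at 24 h (CPT1A and ACAA2), against 0.218% of all 14235 genes called higher there (0.246% called in either direction). At 72 h with the IC50 dose, 4 were past the threshold (PDK4, CPT1A, SLC25A20 and ACAA2), PDK4 being the gene already known, against 0.429% called higher and 0.885% in either direction. With G-1 1 µM at 24 h, 3 rose (CPT1A, SLC25A20 and ACADVL), against 20% called higher and 30.6% in either direction. With G-1 1 µM at 72 h, 4 rose (PDK4, CPT1A, SLC25A20 and ACADVL), against 35.3% called higher and 66.2% in either direction. The call of PDK4 there shares its DMSO arrays with the rise already known. None of the 6 was called lower in any of these 4 comparisons, against 0.0281%, 0.457%, 10.5% and 30.9% of all genes. The background is low for the IC50 dose and high for 1 µM, where 3 or 4 of 6 lies closer to it. Arrays of the treated group lay wholly above DMSO for 4, 5, 4 and 4 of the 6 genes in that order of comparisons, against 1.57%, 2.68%, 19.6% and 31.2% of all genes. An unadjusted p under 0.05 in limma was found for 6, 5, 3 and 4 of the 6, the known rise of PDK4 included. In the same order, 664, 1366, 5999 and 9823 of all 14235 genes had one. With a fold change above 2 required as well, as in the methods of the study, the counts were 0, 1, 0 and 1, the gene being PDK4, against 0.0632%, 0.112%, 1.69% and 12.3%. The rises other than those of ANGPTL4 and PDK4 were thus all under 2-fold. CPT1A was the only gene of the 6 that passed in all 4 comparisons.

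**Figure D3:**
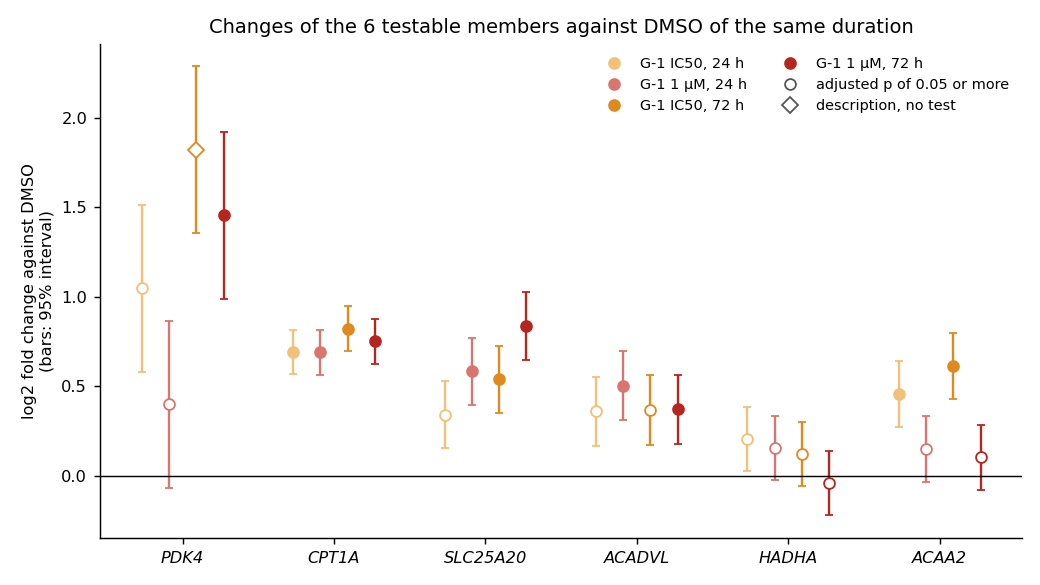
Log2 fold changes of the 6 testable genes against DMSO of the same duration. Points are estimates of the linear model with 95% intervals, filled where the adjusted p was under 0.05, and the diamond is the PDK4 value given as a description. CPT1A lies between 0.69 and 0.82 in all 4 comparisons, PDK4 reaches 1.82, HADHA lies between -0.04 and 0.20, and ACAA2 is raised with the IC50 dose.

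The effect of duration was tested as the difference of the 72 h and 24 h effects, which removes a constant offset of slide 3. The effect of G-1 1 µM on PDK4 was larger at 72 h by 1.06 ± 0.32 on the log2 scale (SE, limma adjusted p = 0.015), and 1 of 6 genes was called, against 34.1% of all genes. That value uses the DMSO arrays at 72 h, on which the known rise of PDK4 with the IC50 dose also rests. For CPT1A the same difference was 0.06, with a 95% interval from -0.11 to 0.24. With G-1 IC50, 0 of 6 genes passed in limma, against 0.014% of all genes, and 1 had an unadjusted p under 0.05 (PDK4, 0.77 ± 0.32, adjusted p = 1). The DMSO groups of 24 h and 72 h differed for 0 of 6 genes in limma, against 3.29% of all genes, and 1 had an unadjusted p under 0.05 (CPT1A, 0.14 ± 0.06, adjusted p = 0.227). Of all 14235 genes, 601 had an unadjusted p under 0.05 for the duration effect of G-1 IC50 and 2735 between the DMSO groups. Between the doses, 2 of 6 genes were called at 24 h (PDK4 and ACAA2, both lower with 1 µM), against 26.6% of all genes (18.3% higher and 8.29% lower), and 0 without replicate 3 of G-1 1 µM. The replicate number paired the samples in that comparison. With it as a block in limma, SLC25A20 was called as well (adjusted p = 0.0124), beside PDK4 (0.02) and ACAA2 (0.00876). The same block called 7052 of the 22970 tested probes. At 72 h 2 were called (SLC25A20 higher and ACAA2 lower with 1 µM), against 65.1% (35.9% higher and 29.3% lower).

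The rest of the pathway was examined with a list of 53 other PPAR targets, of which 35 were tested. With G-1 IC50, limma called 0 of the 35 at 24 h and 0 at 72 h. All genes were called at 0.246% and 0.885%, shares at which 0 of 35 is the likely count. An unadjusted p under 0.05 was found for 1 and 4 of the 35, and for 664 and 1366 of all 14235 genes. The median log2 fold change of the 35 was -0.01 and 0.01, beside -0.01 and -0.02 for all genes. The largest difference was that of CD36, a fatty acid receptor at the cell surface, at 1.02 ± 0.26 with G-1 IC50 at 72 h (adjusted p = 0.084), named after its value was seen. At 1 µM, 6 rose and 4 fell at 24 h (median 0.00), and 11 rose and 17 fell at 72 h (median -0.16, beside 0.03 for all genes). The 10 and 28 called genes of 35 stand against 30.6% and 66.2% of all genes.

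By role, the counts with G-1 1 µM at 72 h stand against 35.3% of all genes called higher and 30.9% called lower, and roles were not tested against each other. Of 6 genes of fatty acid uptake and activation, 4 rose and 2 fell. LPL, the lipase that ANGPTL4 inhibits, rose by 0.86 ± 0.13 on the log2 scale at 24 h (limma adjusted p = 0.000119) and by 1.61 ± 0.13 at 72 h (adjusted p = 1.92e-09). The fatty acid transporter SLC27A1 fell by 0.47 at 24 h and by 1.77 at 72 h (adjusted p = 0.0133 and 7.4e-10), and CD36 rose by 0.83 at 72 h (adjusted p = 0.00901). Of 13 further genes of mitochondrial beta-oxidation, 2 rose and 9 fell at 72 h, with a median of -0.28. Those with the largest change were ACADS, the short-chain dehydrogenase, at -0.75, the carnitine acetyltransferase CRAT at -0.64, and ETFA, a subunit of the electron transfer flavoprotein, at 0.59. At 24 h 1 of the 13 was called (CPT1B, the muscle form of the CPT1 enzyme, 0.30), against 30.6% of all genes. With the IC50 dose none was called, against 0.246% of all genes at 24 h and 0.885% at 72 h.

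Of 6 peroxisomal genes, 2 rose and 1 fell with G-1 1 µM at 72 h, and the larger rise was that of the fatty acid transporter ABCD3 at 1.20 ± 0.12. Of 3 lipid droplet genes 2 rose, namely G0S2, an inhibitor of the triglyceride lipase, at 1.23 and HILPDA at 0.71. Of 3 ketone body genes 2 fell, among them BDH1, a dehydrogenase of hydroxybutyrate, at -1.33. In the remaining role, TXNIP (-1.53), UCP3 (-1.07) and ACOT1 (-0.58) fell and 1 of 4 genes rose. Several genes typical of PPAR activity in liver and fat were above background on no array, namely FABP1, FABP4, CYP4A11, FGF21 and PLIN1.

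**Figure D4:**
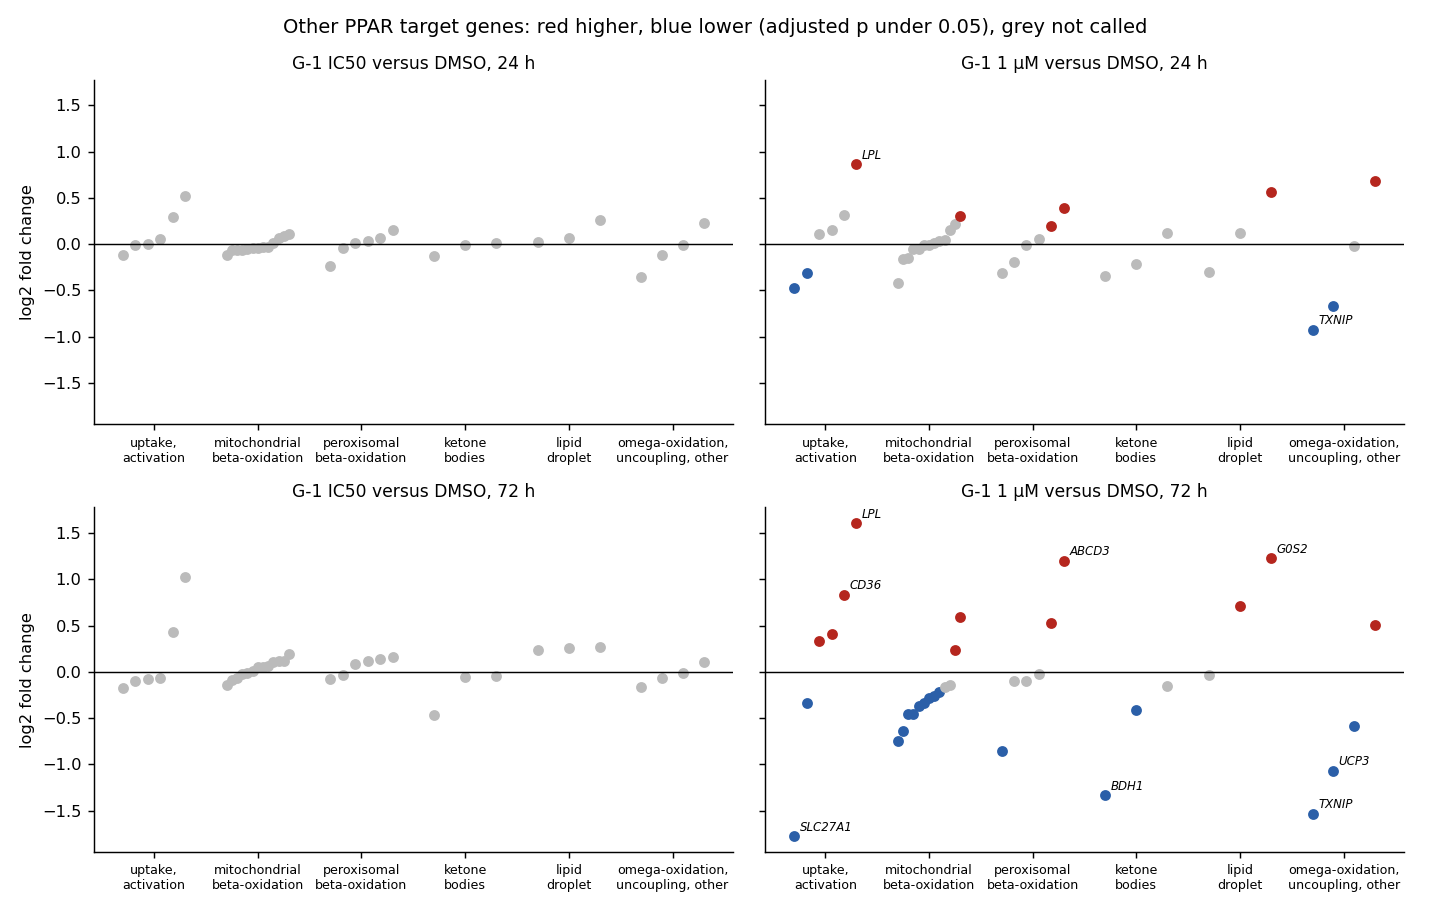
Log2 fold changes of the 35 other PPAR targets by role in the 4 comparisons with DMSO. Red points rose and blue points fell at an adjusted p under 0.05, grey points were not called, and the names are those of genes beyond 0.8 that the text describes. No point is coloured with the IC50 dose, 10 are at 1 µM 24 h, and 28 at 1 µM 72 h, where most mitochondrial genes are blue and LPL, G0S2 and ABCD3 are red.

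Of 18 receptors, RXR partners and cofactors, 16 were tested, and PPARG was above background on no array. PPARA, the receptor best known for fatty acid oxidation, was not called in any comparison with DMSO and had differences between -0.17 and 0.10. PPARD, the receptor form found in most tissues, rose by 0.23 ± 0.07 with G-1 1 µM at 24 h (limma adjusted p = 0.0193). Its difference from DMSO was -0.11 with 1 µM at 72 h (adjusted p = 0.184), and 0.00 and -0.27 with the IC50 dose at 24 h and 72 h (adjusted p = 1 and 0.0948), its arrays at 72 h with the IC50 dose lying wholly below DMSO. With G-1 IC50, limma called 0 of the 16 at 24 h, with 3 at an unadjusted p under 0.05, and 1 at 72 h, the coactivator PPARGC1B, which fell by 0.55 ± 0.12 (adjusted p = 0.0433). Of all genes, 0.246% and 0.885% were called in these comparisons, and 664 of 14235 had an unadjusted p under 0.05 at 24 h. The 1 µM dose raised 3 at 24 h, against 20% of all genes called higher, and 6 rose and 2 fell at 72 h, against 35.3% and 30.9%, led by the coactivator PPRC1 at 0.58 ± 0.09 and 0.88 ± 0.09.

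Few relatives of the members could be tested. Of the 8 angiopoietin-like genes, ANGPTL4 was the only gene to be tested, and ANGPTL2 was above background on 10 arrays and ANGPTL6 on 1. Among the 6 pyruvate dehydrogenase kinases and phosphatases, the rise of PDK4 with G-1 IC50 at 72 h was known beforehand and is given without a test. The other 5 were not called there, against 0.885% of all genes called in either direction. At 1 µM for 72 h PDK4 and the phosphatase PDP1 (0.57 ± 0.15) rose and PDK2 (-1.37 ± 0.09) and PDK3 fell. Of all genes, 35.3% were called higher and 30.9% lower there. Of the perilipins PLIN3 was tested, and it rose with G-1 1 µM by 0.36 ± 0.06 at 24 h and 0.68 ± 0.06 at 72 h. A further 6 tested genes were LPL itself, counted above under uptake, and genes that cleave ANGPTL4 or assist the lipase. With G-1 1 µM, 2 of the 6 rose at 24 h (LPL and the convertase PCSK7), against 20% of all genes called higher. At 72 h 3 rose and 3 fell, against 35.3% called higher and 30.9% lower. With the IC50 dose limma called none of these 6 at either duration, against 0.246% of all genes at 24 h and 0.885% at 72 h.

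ANGPTL4 and PDK4 are also known targets of other regulators, and 3 further lists were counted. Of 11 tested targets of the hypoxia-inducible factors (HIF), 11 had a positive difference in each of the 4 comparisons with DMSO, and 11 likewise in DMSO at 72 h against DMSO at 24 h, without G-1 (median 0.33). Between the DMSO groups limma called 0 of the 11, against 3.29% of all genes. An unadjusted p under 0.05 was found there for 3 of the 11 and for 2735 of all 14235 genes. In limma the IC50 dose gave 0 calls at either duration (2 and 1 at an unadjusted p under 0.05), against 0.246% and 0.885% of all genes. The unadjusted counts of this list and of the 2 below stand beside 664 and 1366 of all 14235 genes at an unadjusted p under 0.05. At 1 µM 4 of the 11 rose at 24 h and 7 at 72 h, against 20% and 35.3% of all genes called higher. Their median log2 fold changes were 0.32 and 0.21 with the IC50 dose and 0.41 and 0.82 with 1 µM, each at 24 h and then 72 h, beside medians of all genes between -0.02 and 0.04. ADM, which encodes the vasodilator peptide adrenomedullin, rose by 0.67 ± 0.17 with G-1 1 µM at 24 h (adjusted p = 0.00671) and by 1.32 ± 0.17 at 72 h (adjusted p = 1.24e-06). Of 7 glucocorticoid receptor targets, 0 were called with the IC50 dose at either duration (2 and 2 at an unadjusted p under 0.05), against the same 0.246% and 0.885%. With 1 µM 2 rose and 1 fell at 24 h, against 20% of all genes called higher and 10.5% lower. At 72 h 2 rose and 3 fell, against 35.3% and 30.9%. Of 10 targets of FOXO factors, 0 were called with the IC50 dose (1 and 3 at an unadjusted p under 0.05), against 0.246% and 0.885% of all genes. With 1 µM 2 fell at 24 h, against 10.5% of all genes called lower. At 72 h 2 rose and 4 fell, against 35.3% higher and 30.9% lower. TXNIP, which fell at both durations, is also on the list of other PPAR targets and is counted in both.

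The genes whose levels ran most like those of ANGPTL4 over the 24 arrays were sought among 14234 others by Pearson's correlation, given as a description because the arrays share groups and treatment. They were HAUS6, a subunit of the augmin complex of the spindle (r = 0.939), STC1, which encodes stanniocalcin (0.917), ADM (0.913), CPT1A (0.902) and PAPSS2, which makes the sulfate donor of the cell (0.899). CPT1A thus ranked 4, followed among the members by ACADVL at rank 40 (0.822), SLC25A20 at 41 (0.822), PDK4 at 74 (0.793), ACAA2 at 4158 (0.374) and HADHA at 6556 (0.08). For PDK4 the most similar were DOCK4 (0.837), CPT1A (0.799), ANGPTL4 (0.793), FAM210A (0.788) and PAPSS2 (0.782).

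**Figure D5:**
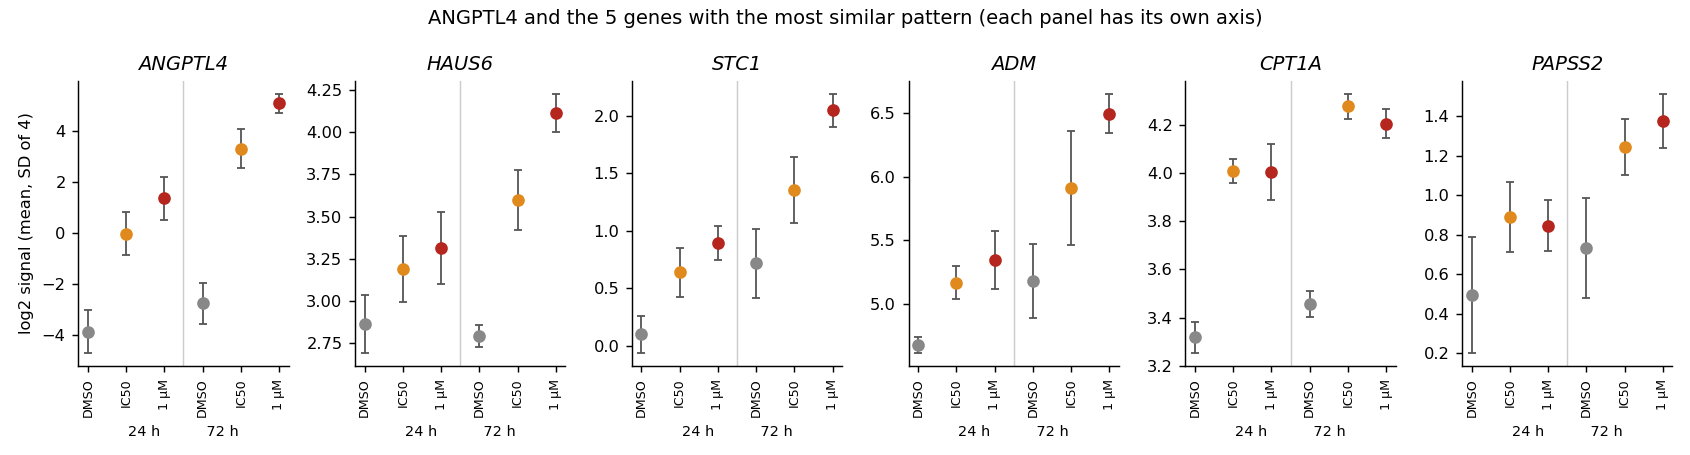
Mean log2 level and SD (n = 4) in the 6 groups for ANGPTL4 and the 5 genes with the most similar pattern over 24 arrays. Each panel has its own y axis, and grey, orange and red points are DMSO, the IC50 dose and 1 µM, with 24 h on the left and 72 h on the right. Correlations with ANGPTL4 run from 0.899 (PAPSS2) to 0.939 (HAUS6), and CPT1A differs from the others in having its highest mean with G-1 IC50 at 72 h.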

How the data were processed

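Per the labels, 24 arrays of 6 groups were hybridised with 1 colour. The authors deposited the intensity values of each array as Feature Extraction wrote them (background-subtracted, no scaling between arrays; version 12.1.1.1 in the file headers, 10.7.3.1 in the labels). A table with log2 values was deposited as well, scaled and centred by the authors in a way not given in the sources used here. It matched the values below, centred per probe, with a median difference of 0.00142 log2. Outlier spots were dropped, spots of a probe averaged as log2, and the 75th percentile of each array subtracted. Of 58201 probes, 83 lacked a value and the 22970 that exceeded background clearly on each array of some group were tested. A gene was read by its brightest tested probe. limma 3.58.1 (R 4.3.3) fitted the 6 group means over the 24 arrays jointly, with Benjamini-Hochberg adjustment over all tested probes and a threshold of 0.05. The fit was tested on simulated data. Single values of some listed genes are not reported here.

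The members and lists were chosen with earlier results of these data known, and the lists were written from general knowledge (PPAR targets, receptors, families, HIF, glucocorticoid and FOXO targets, cell type markers). All members were named, with at most 3 called genes per role and comparison, and the 5 genes most correlated with ANGPTL4 and PDK4. The replicate number was taken to pair the samples where the deviations of all 4 same-numbered pairs correlated above 0.1, which held at 24 h for 1 µM against DMSO (r from 0.166 to 0.281) and the IC50 dose (0.202 to 0.308). For the IC50 dose against DMSO it held for 3 of 4 pairs at 24 h (from -0.113) and at 72 h (0.0528 to 0.485). The main fit held no replicate term in any comparison, also where the number paired the samples, and a replicate block was run as an alternative. The number of arrays limits the precision, and p-values measure the spread between these samples. Alternatives were quantile or 50th percentile scaling, normexp with an offset of 50, other filters, the deposited table, fits of the compared arrays alone, a variance trend, replicate or slide blocks, a fold change above 2, the methods' t-test, and each array left out.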

Additional observations from a re-analysis of the deposited data

Results flagged for a closer look

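Of 48 groups of 4 arrays checked over the 8 genes, 3 held an array far from the other 3, and chance flags about 1 in 20 groups. PDK4 in G-1 1 µM 72 h was 0.39 in replicate 1, against -0.54 in the nearest replicate. SLC25A20 in DMSO 72 h was 2.49 in replicate 4, against 2.40 in the nearest. ACAA2 in DMSO 72 h was 2.28 in replicate 1, against 2.10 in the nearest. The effect of G-1 1 µM on PDK4 differed between the durations, by 1.06 on the log2 scale (limma adjusted p = 0.015), being larger at 72 h. It shares the DMSO arrays at 72 h with the rise of PDK4 known beforehand. Leaving out any array in turn left 1 gene called for this difference.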

How the results depend on the processing

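The difference of HADHA with G-1 1 µM at 72 h, which was not called (-0.04), was 0.0604 with normexp and ran from -0.0913 to 0.00131 with each array left out. No other difference of a member from DMSO changed its sign. CPT1A kept its rise past the threshold with G-1 IC50 under all 11 alternatives at each duration (highest adjusted p 0.0211 at 24 h and 0.0033 at 72 h). Over the 6 testable genes beside ANGPTL4, the count for G-1 IC50 at 24 h (2) became 1 with normexp, without the filter on dim probes, and with only the compared arrays, where ACAA2 was lost. Quantile normalization gave 1 at 24 h and 4 at 72 h for the comparison of the doses (2 and 2), and normexp and the compared arrays alone gave 1 at 24 h. Requiring a fold change above 2 gave 0 and 1 with G-1 IC50 at 24 h and 72 h, 0 and 1 with 1 µM, and 0 and 0 between the doses. The methods' t-test with that fold change gave 1 and 1 with G-1 IC50, 0 and 1 with 1 µM and 0 and 0 between the doses before adjustment, and after Benjamini-Hochberg 0 and 0, 0 and 1, and 0 and 0.

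The other PPAR targets called with G-1 1 µM at 24 h (10) were 6 with the 50th percentile, 5 with the compared arrays alone, and 0 with a fold change above 2 or with the t-test before or after adjustment. At 72 h (28) these last 3 gave 7 each, and the t-test before adjustment gave 1 with G-1 IC50 at 72 h (0). Under the 50th percentile the median log2 difference of all genes with the IC50 dose at 24 h moved from -0.01 to 0.07.

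In the comparisons of G-1 IC50 with DMSO 3 of 4 same-numbered pairs correlated above 0.1 at each duration, short of the limit for pairing, and 1 of 8 samples at 24 h and 6 of 8 at 72 h correlated best with their own number. With the replicate number as a block, 4 genes were called with G-1 IC50 at 24 h, PDK4 and SLC25A20 being added (adjusted p = 0.0203 and 0.0329), and 3 other PPAR targets with G-1 IC50 at 72 h. As a block within each duration, it gave 4 and 3 for the same counts, 2 for the duration effect of 1 µM (1), and 16 other PPAR targets with 1 µM at 24 h. It changed no other count by over 1.5 times.

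Leaving out each array in turn gave 1 to 2 genes with G-1 IC50 at 24 h, 4 to 4 at 72 h, 3 to 3 and 4 to 4 with 1 µM, 0 to 2 and 2 to 3 between the doses, and 6 to 10 and 25 to 27 other PPAR targets with 1 µM. Without replicate 3 of G-1 1 µM 24 h the dose comparison at 24 h gave 0 and the other PPAR targets at 24 h 6, and without replicate 2 or 4 of either dose the dose comparison gave 1. The count of 1 with G-1 IC50 at 24 h arose without replicate 1, 3 or 4 of DMSO or replicate 1, 2 or 4 of G-1 IC50. Signals near background limit ANGPTL4 in DMSO and PLIN2, and the causes of these shifts were not tested.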
